A study of Mus musculus with 29 samples.

Results

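Mitochondrial ribosomal protein genes were followed through the cytosol and membrane fractions of the mouse myoblast line C2C12. They were chosen by name: symbols that begin with Mrpl or Mrps and a number, with at least 260 reads over the 26 libraries of 3' ends. Of 76 such symbols, 72 met the read minimum, out of 15954 genes with at least 1 read. Mrps36 with 164 reads fell just short and Mrpl22 with 372 reads lay just inside, and Mrpl48, Mrps28 and Mrps21 also stayed below the minimum. The members comprise 48 proteins of the large subunit, with Mrps18a and Mrps30 counted there as structures place them, and 24 of the small subunit. Proteins with a bacterial counterpart made up 30 of the large and 14 of the small subunit set, and the other 18 and 10 are found only in mitochondria.

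Mitochondrial ribosomes translate the few membrane proteins of the respiratory chain that mitochondrial DNA encodes. All of their proteins are encoded in the nucleus, translated in the cytosol or at the surface of mitochondria, and imported to meet the ribosomal RNA made inside the organelle. Muscle cells rely heavily on oxidative phosphorylation, and the fusion of myoblasts into myotubes is accompanied by a build-up of mitochondria.

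The libraries were made with 3'READS+, which sequences the fragment of a transcript next to its poly(A) tail, so that a count is a number of transcript ends and needs no scaling by length. Proliferating cells were kept in DMEM with 10% fetal bovine serum, penicillin and streptomycin. Cells labelled as differentiating had a medium label of 2% horse serum for the polysome libraries and of 10% fetal bovine serum for the monosome libraries. Each state was split into cytosol and membrane, and each fraction into polysomes and monosomes, with 2 replicates in each of the 8 groups. A further 10 libraries came from whole cytosol and membrane fractions of proliferating cells, in 5 pairs: a pair with no puromycin label, an untreated pair, and pairs given 100 µg/ml puromycin for 0, 30 or 60 min. Puromycin is taken into nascent chains and releases them from the ribosome. Single RNA-seq libraries of the cytosol, membrane and insoluble fractions of proliferating cells completed the series, and all samples came from this 1 cell line. The labels do not say whether replicates were separate cultures, so that p-values measure only how far these samples lie apart, a spread that may be technical.

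Library totals ran from 2964852 to 11631401 reads. The membrane fraction carried the transcripts of secretory and ER proteins: 16 markers of that kind summed to between 1048 and 4224 CPM (reads scaled to an equal library total) in the gradient cytosol of proliferating cells and to between 25758 and 41180 CPM in the membrane. The table held 0 mitochondrially encoded transcripts, so that the share of mitochondria in either fraction could not be read from it. In differentiating cells 11 muscle markers summed to between 19146 and 46112 CPM in replicate 1 and to between 4008 and 8421 CPM in replicate 2, against 71 to 282 CPM in the gradient libraries of proliferating cells. For this reason membrane against cytosol in differentiating cells, and differentiating against proliferating cells, are also given without each replicate number. The other comparisons that use differentiating cells, among them polysomes against monosomes, were not refitted that way. Nuclear RNAs summed to 658 and 313 CPM in the membrane monosomes of proliferating cells and to at most 23 CPM in the cytosol, and their part in the results was not tested.

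Levels spanned a wide range for proteins of the same particle. Of the 72 members, 61 averaged at least 10 CPM over the 26 libraries. Mrpl12, the stalk protein that contacts translation factors, averaged 1052 CPM, and Mrpl28 averaged 936 CPM. Mrps16 followed at 665 CPM and Mrps18a at 635 CPM. The other 4 of the 8 most abundant members were Mrpl40 at 394 CPM, Mrps27, a pentatricopeptide-repeat protein of the small subunit, at 320 CPM, Mrpl51 at 314 CPM and Mrpl20 at 251 CPM. The ranges over libraries overlapped between these neighbours, since Mrpl12 ran from 371 to 2290 CPM, Mrpl28 from 159 to 2612 CPM, Mrps16 from 312 to 1276 CPM and Mrps18a from 383 to 955 CPM. Mrpl22 was the lowest at 2.5 CPM. The median level was 44.5 CPM for large subunit proteins with a bacterial counterpart and 105 CPM for those found only in mitochondria, and in the small subunit it was 89.6 CPM and 64.9 CPM.

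Most members ended at a single place. In 39 members only 1 site held 5% or more of the reads, and the main site held a median of 95.7% and at least 34.3%. The main site of Mrpl12 lay at position 120350010 of chromosome 11 on the plus strand in build mm9 and held 83.4% of its reads. That of Mrpl28 lay at 26263558 of chromosome 17 on the plus strand, and that of Mrps22 at 98489149 of chromosome 9 on the minus strand. The main site of Mrpl3 lay at 104979794 of chromosome 9 on the plus strand with 69.8% of its reads. No gene annotation of mm9 was used here, so that the sites carry no exon or UTR label. By RefSeq coordinates on GRCm38, 17 members overlap a named neighbour, among them Mrps6 with Slc5a3, Mrps7 with Gga3 and Mif4gd, Mrpl43 with Twnk, Mrpl2 with Klc4, and Mrpl37 with Cyb5rl. Reads of such partners could not be separated beyond the symbol the table gives.

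The promoters of the members were searched for short motifs, which were not part of the choice. RefSeq promoter sequences of GRCm38.p6, 250 bases before to 50 after the gene start, were found for 64 of the 72 members. Windows of 30 bases are shown for genes that differ in their distribution below, with the motif in capitals, as an NRF1 or ETS letter pattern on either strand.
Mrpl3 (ETS, chr9:105053237-105053266, plus strand): ttgagaaacggaCCGGAAGtggcccggctg
Mrps22 (ETS, chr9:98601673-98601702, minus strand): aaacctctcgagCCGGAAGttgctctatcg
Mrpl12 (NRF1, chr11:120484546-120484575, plus strand): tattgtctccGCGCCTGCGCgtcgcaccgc
Mrps18c (ETS, chr5:100798591-100798620, plus strand): cgggtcacgtgaCTTCCGGcccgggaagcg
Mrpl45 (NRF1, chr11:97315586-97315615, plus strand): gaagcctcctGCGCAGGCGCagctggctct
The NRF1 pattern, GCGCA and GCGC with any base between them, was in 11 of the 64 promoters, or 17.2%, against 4.78% of 27025 promoters and 11% of the 8067 promoters of genes tested here. The ETS pattern CCGGAAG was in 22, or 34.4%, against 9.12% and 18.6%, and the YY1 pattern AAGATGG in 13, or 20.3%, against 6.48% and 7.52%. The GC-box pattern GGGCGG was in 31, or 48.4%, against 35.9% and 66.1%, and CCAAT in 26, or 40.6%, against 37.9% and 39.0%. All patterns were searched on both strands, and a promoter could hold several of them. Genes on either side of the membrane comparison held the ETS pattern: Mrpl3 and Mrps22 were higher in the membrane and Mrps18c was lower. Mrpl1, Mrpl2 and Mrpl37, also higher there, held neither the ETS nor the NRF1 pattern, and Mrpl38 had no promoter sequence. Of other genes with large decreases, Mrps7 and Mrpl42 held neither pattern, while Mrpl43 and Mrps33 held the ETS pattern. A match is a description of the letters and not evidence of binding.

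The first comparison asks where the transcripts of these proteins lie. As a group they took a larger share of the cytosol than of the membrane. In proliferating cells they made up 1.36% and 1.36% of reads in cytosolic polysomes and 1.02% and 1.11% in cytosolic monosomes. The membrane libraries held 0.795% and 0.740% in polysomes and 0.837% and 0.826% in monosomes, so that the 2 fractions did not overlap. In differentiating cells the share was 1.05% and 1.09% in cytosolic polysomes, 0.804% and 0.729% in cytosolic monosomes, 0.693% and 0.605% in membrane polysomes, and 0.705% and 0.595% in membrane monosomes. Here the fractions again did not overlap, by a narrow margin. A share is relative to all reads of its library, and the total RNA of a fraction was not measured.

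**Figure D1:**
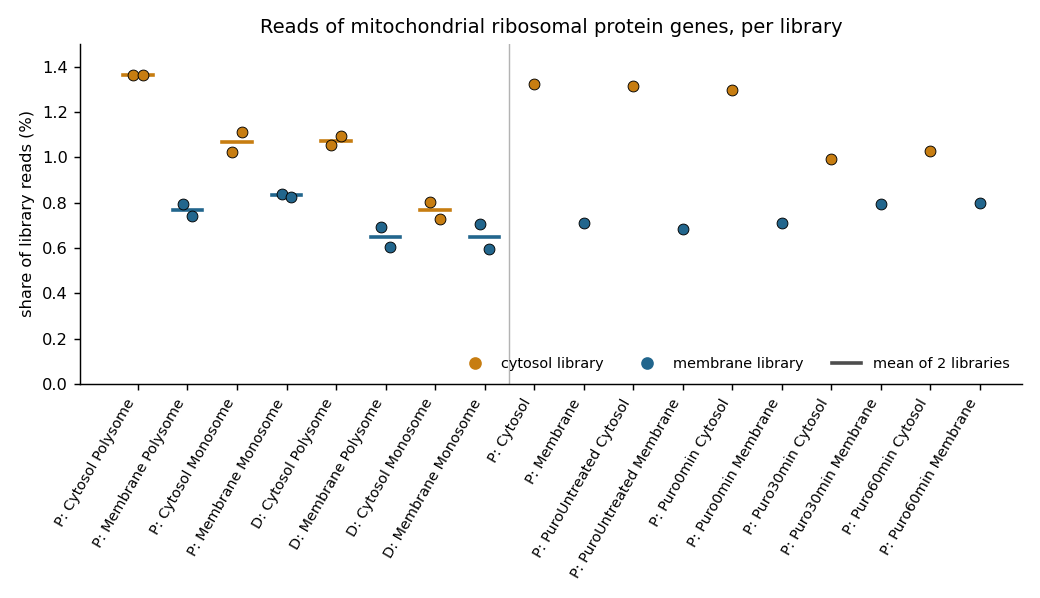
Summed share of reads of the 72 genes in percent (vertical axis, from 0) in each 3' end library of proliferating (P) and differentiating (D) cells, with a point for each library and a line for the mean of 2 libraries. Whole fractions, right of the vertical line, have 1 library each, and in the gradient libraries of proliferating cells the membrane points lie between 0.740% and 0.837%, below every cytosol point.

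In proliferating cells 31 of the 72 members were lower in the membrane and 6 were higher by the quasi-likelihood test of edgeR, with p adjusted by Benjamini-Hochberg over 11176 genes. Of all genes, 11.5% were called lower and 23.2% higher. The members' median log2 difference, membrane minus cytosol, was -0.69 against 0.17 over all genes, and 60 of the 72 were below 0. Their CPM did not overlap between fractions in 16 members that were lower, a pattern of 4.31% of all genes, and in 5 that were higher, a pattern of 21.7%. With replicate number as a block, 50 were lower and 8 higher, against 22.5% and 33.6% of all genes. The 71 tested cytosolic ribosomal protein genes showed 47 lower and 2 higher with a median of -1.30.

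Both subunits took part. Of the 48 large subunit genes 20 were lower and 5 higher with a median of -0.65, and of the 24 small subunit genes 11 were lower and 1 was higher with a median of -0.77. Split by origin, 11 of 30 large subunit genes with a bacterial counterpart and 9 of 18 without were lower, as were 6 of 14 and 5 of 10 in the small subunit.

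Among large subunit genes Mrpl12 had the largest decrease at 10 CPM or more. It stood at 2146 and 2290 CPM in cytosolic polysomes and 1072 and 1567 CPM in cytosolic monosomes. The membrane held 797 and 781 CPM in polysomes and 544 and 719 CPM in monosomes, all below the lowest cytosol library. The log2 difference was -1.47 (SE 0.24, edgeR adjusted p = 0.00033). Mrpl43, a protein of mitochondria only, fell by 1.38 (SE 0.26, edgeR adjusted p = 0.0012). Mrpl42, also without a bacterial counterpart, differed by -1.15 (SE 0.41, edgeR adjusted p = 0.0421), a call that was lost in 5 of the 8 fits that left out 1 library, with its largest p of 0.185 without replicate 1 of cytosolic polysomes.

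Members known for their place or origin were read in the same libraries. Mrpl45, which lies at the tunnel exit and faces the inner membrane, stood at 70.4 and 113 CPM in cytosolic polysomes and 175 and 138 CPM in cytosolic monosomes, with 60.2 and 103 CPM and 53.5 and 75.1 CPM in the same membrane classes. Its fractions overlapped, and its difference was -0.90 (SE 0.32, edgeR adjusted p = 0.0447), a call kept in 4 of the 8 fits without 1 library. Mrpl23, at the same exit, was not called at -1.0 (SE 0.53, edgeR adjusted p = 0.166), while the fit with the replicate block gave an adjusted p of 0.016. Mrps18a, which has a relative in bacterial S18 but sits in the large subunit at a place bacteria do not fill, and was counted with the proteins of mitochondria only, fell by 0.86 (SE 0.23, edgeR adjusted p = 0.0112).

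The largest decreases among small subunit genes at 10 CPM or more were those of Mrps7, Mrps33 and Mrps18c. Mrps18c, an S18 homologue of the small subunit, had 194 and 128 CPM in cytosolic polysomes and 105 and 119 CPM in cytosolic monosomes, against 81.3 and 37.5 CPM and 79.4 and 54.4 CPM in the membrane. The fractions did not overlap, and the difference was -1.33 (SE 0.24, edgeR adjusted p = 0.000804). Mrps33, a protein of mitochondria only, had 102 and 101 CPM and 149 and 143 CPM in the cytosol and 43.5 and 45.5 CPM and 71.4 and 64.8 CPM in the membrane, and fell by 1.35 (SE 0.20, edgeR adjusted p = 0.000172). Its membrane libraries all lay below its cytosol libraries. Mrps7, a protein of the subunit head, fell by 1.39 (SE 0.25, edgeR adjusted p = 0.000721). The decreases of Mrpl12, Mrpl43, Mrps7, Mrps33, Mrps18a and Mrps18c were called in each of the 8 fits that left out 1 library, and 22 of the 31 decreases were kept in all of those fits.

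Of 3 further small subunit genes, 1 was called. Mrps12, at the decoding centre, differed by -0.77 (SE 0.26, edgeR adjusted p = 0.0357) and kept its call in 4 of 8 fits without 1 library. Mrps5, which lines the entry of the messenger RNA, was not called at 0.74 (SE 0.35, edgeR adjusted p = 0.126), with an adjusted p of 0.024 under the replicate block. Mrps18b was not called at -1.08 (SE 0.58, edgeR adjusted p = 0.175), with 0.031 under the block.

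The 6 genes called higher in the membrane were among 12 members above 0. Mrpl3, a core protein near the peptidyl transferase centre, stood at 13.8 and 24.6 CPM in cytosolic polysomes and 3.39 and 7.07 CPM in cytosolic monosomes. Membrane polysomes held 35.9 and 69.3 CPM and membrane monosomes 25.6 and 52.5 CPM. Every membrane library was above every cytosol library, and the difference was 2.01 (SE 0.39, edgeR adjusted p = 0.00121). Mrpl38, a protein of mitochondria only, had 79.1, 85.1, 159 and 136 CPM in the cytosol and 255, 250, 278 and 346 CPM in the membrane, a gain of 1.15 (SE 0.23, edgeR adjusted p = 0.00146) with no overlap. Mrpl3 and Mrpl38 kept the call in all 8 fits without 1 library, and the other 4 did not.

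Mrpl1, a protein of the mobile stalk beside the exit site for tRNA, was higher by 1.35 (SE 0.34, edgeR adjusted p = 0.00698), and by 0.88 (adjusted p = 0.092) without replicate 1 of membrane monosomes. Mrps22, a small subunit protein of mitochondria only, had 31.7, 34.7, 50.3 and 25.0 CPM in the cytosol and 96.3, 83.5, 138 and 87.8 CPM in the membrane. These did not overlap, and the gain of 1.28 (SE 0.39, edgeR adjusted p = 0.0206) kept its call in 2 of 8 fits without 1 library. Mrpl37, a relative of Mrps30, was higher by 0.92 (SE 0.25, edgeR adjusted p = 0.0124) and by 0.53 (adjusted p = 0.106) without replicate 2 of membrane monosomes. Mrpl2, another core protein, was higher by 0.80 (SE 0.27, edgeR adjusted p = 0.0322), a call also lost with DESeq2 size factors at 0.61 (adjusted p = 0.101).

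**Figure D2:**
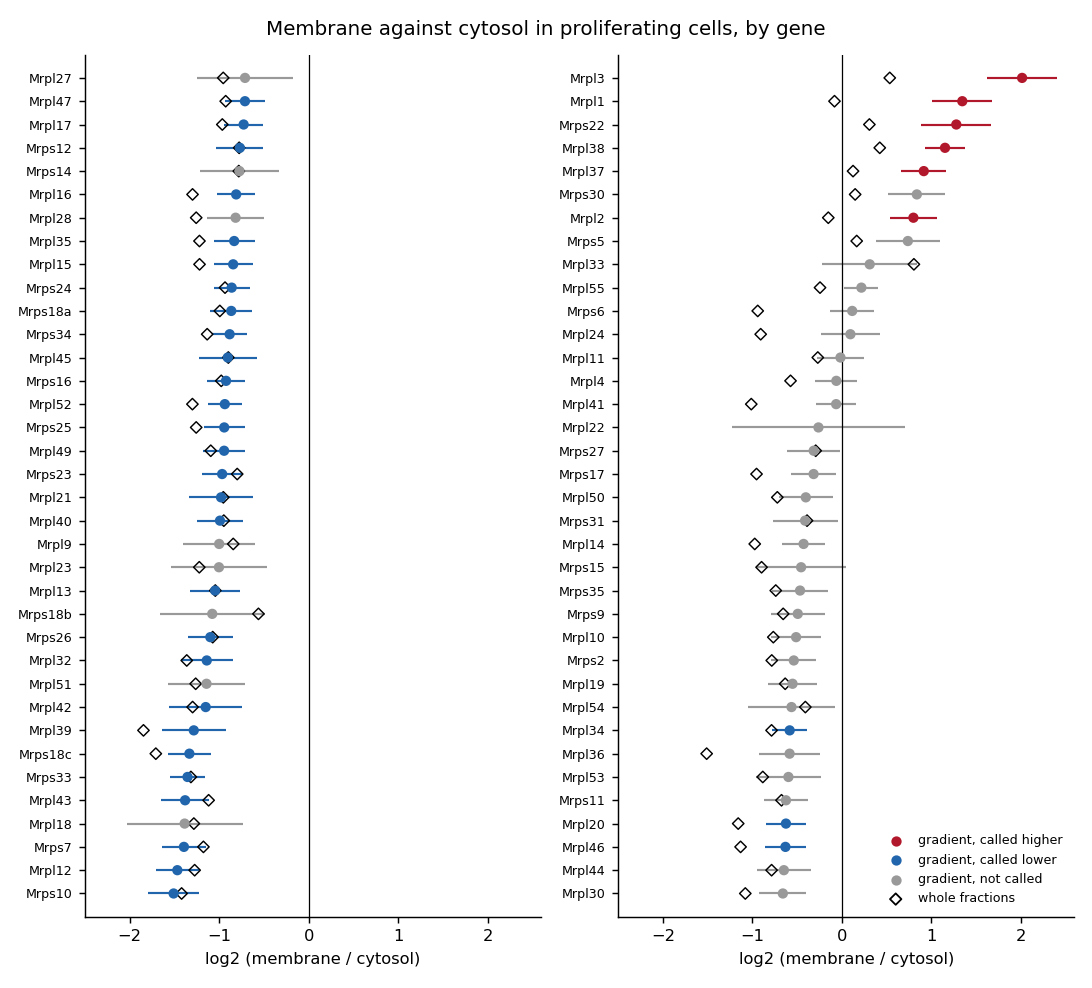
Log2 ratio of membrane to cytosol of each member in proliferating cells, from edgeR. Circles with bars of 1 SE are the gradient libraries, coloured by the call at an adjusted p of 0.05, and open diamonds are the whole fractions not exposed to puromycin. Most circles lie below 0 around a median of -0.69, Mrpl3 lies highest at 2.01, and the diamonds of the 6 genes called higher lie between -0.15 and 0.54.

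Other parts of mitochondrial protein synthesis were counted in the same fit. Of 16 mitochondrial aminoacyl-tRNA synthetases, which charge the tRNAs of the organelle, 9 were higher in the membrane and 0 lower, with a median of 0.99, and Iars2 was higher by 1.96 and Yars2 by 2.32. Of 31 translation and assembly factors 10 were higher and 2 lower with a median of 0.54. Of 25 import genes 5 were higher and 8 lower with a median of -0.15, and Timm13, a small intermembrane-space chaperone, fell by 1.39. Among 7 mitoribosome proteins with other names 1 was higher and 3 lower with a median of -0.60, and Ict1, a release-factor relative built into the large subunit, fell by 1.47. These lists are given by their counts, which were not tested against each other.

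Differentiating cells showed the same side of the comparison with fewer calls. There 19 of 72 members were lower and 1 was higher, against 5.49% and 14.2% of all genes, and the members' median was -0.61. CPM did not overlap between fractions in 2 that were lower and 1 that was higher, against 1.07% and 14.1% of all genes. With the replicate block 49 were lower and 2 higher, against 18.3% and 25.1%. Fits without a replicate number leave 1 library in each of the 4 differentiating groups. The share of all genes called in fits with libraries left out is not given here. Their counts therefore cannot set the members apart from a loss of power over all genes. Without replicate 1 in all 4 groups, and without replicate 2, 0 members were called in either direction. Leaving out 1 library gave between 6 and 16 lower members, the fewest without replicate 2 of membrane polysomes.

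Mrpl12 had the lowest p among the members called in differentiating cells. Its cytosol held 1312 and 1148 CPM in polysomes and 596 and 591 CPM in monosomes, and its membrane 654 and 495 CPM and 432 and 371 CPM. Membrane polysomes thus overlapped cytosolic monosomes, and the difference was -1.13 (SE 0.24, edgeR adjusted p = 0.0041). Mrpl49 fell by 1.05 (SE 0.23, edgeR adjusted p = 0.00663) and Mrps25 by 1.00 (SE 0.23, edgeR adjusted p = 0.00786), both proteins of mitochondria only. These 3, with Mrpl52, Mrps24 and Mrps33, kept their call in each fit that left out 1 library.

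Mrpl28 differed by -1.20 (SE 0.32, edgeR adjusted p = 0.0179), Mrpl45 by -1.17 (SE 0.33, edgeR adjusted p = 0.0226) and Mrps18c by -1.02 (SE 0.24, edgeR adjusted p = 0.00914), and each lost its call without replicate 2 of membrane polysomes. Mrpl28 also lost it without replicate 2 of cytosolic polysomes or replicate 1 of membrane monosomes. Mrpl3 was the 1 gene called higher in the membrane. It had 11.5, 13.3, 2.61 and 1.35 CPM in the cytosol and 19.2, 31.9, 11.7 and 10.9 CPM in the membrane, a gain of 1.46 (SE 0.41, edgeR adjusted p = 0.0248) that kept its call in 2 of 8 fits without 1 library. Its cytosolic polysomes overlapped its membrane monosomes.

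The test of the difference between the states called none of the members, and 0.0% of all genes in either direction. Before adjustment 3 members lay under a p of 0.05 in edgeR, and the DESeq2 test called 0. The share of all genes under that unadjusted p is not given here, so that the count is not a result about the members. Under the replicate block 3 members changed less towards the membrane in differentiating cells, against 3.87% of all genes, and 0 more, against 0.725%. They were Mrpl1 at -1.36 (edgeR adjusted p = 0.016), Mrpl38 at -0.86 (edgeR adjusted p = 0.025) and Mrpl37 at -0.80 (edgeR adjusted p = 0.0338), all 3 from the set that was higher in the membrane of proliferating cells. In differentiating cells Mrpl1 had 6.34, 9.86, 16.7 and 11.5 CPM in the cytosol and 17.4, 8.37, 19.1 and 8.49 CPM in the membrane, which overlap. Mrpl38 had 89.2, 72.4, 107 and 107 CPM and 155, 118, 160 and 124 CPM, which do not.

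**Figure D3:**
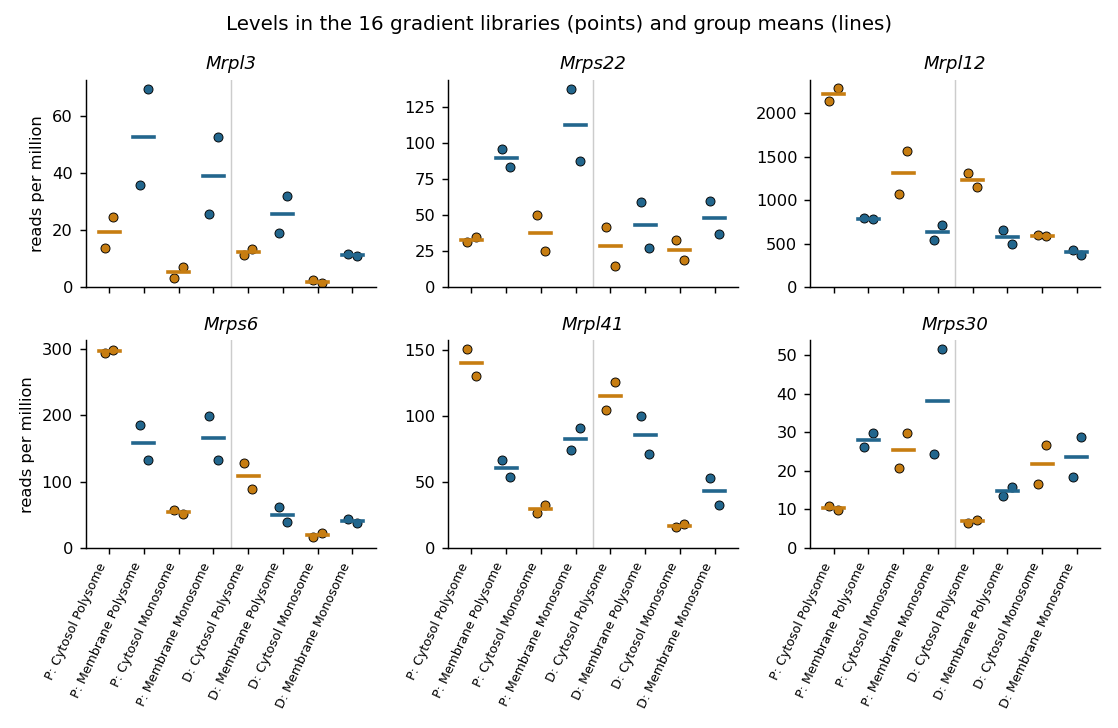
CPM (linear axes from 0) of Mrpl3, Mrps22, Mrpl12, Mrps6, Mrpl41 and Mrps30 in the 16 gradient libraries of proliferating (P) and differentiating (D) cells, with points for libraries, lines for means of 2, and colours for cytosol (orange) and membrane (blue). In proliferating cells Mrpl12 lies lower and Mrpl3 higher in the membrane, and Mrps6 goes from 293 and 298 CPM in cytosolic polysomes to 57.8 and 51.3 CPM in monosomes.

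Whole fractions, which share no library with the gradient comparison, gave the same direction for more genes. Of 71 members tested, 56 were lower in the membrane and 0 higher by edgeR in the pairs not exposed to puromycin, against 29.9% and 32% of 10635 genes. The median was -0.94 for members and 0.00 for all genes. CPM did not overlap between fractions in 39 members that were lower and 0 that were higher, against 18.9% and 28.1% of genes. Of the 56 decreases 51 were kept in each of the 5 fits that left out 1 pair. All 31 members that were lower in the proliferating gradient were among the 56, which is 100% of the first list and 55.4% of the second. The same overlap over all genes is not given here, so that it is not a result about the members.

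Mrps18c had the largest change among those of at least 10 CPM, at -1.71 (SE 0.16, edgeR adjusted p = 5.19e-07). In the pair with no label, the untreated pair and the 0 min pair its cytosol held 61.4, 202 and 181 CPM and its membrane 24.1, 51.2 and 62.5 CPM. The ranges overlapped because the pair with no label was low in both fractions, and the membrane was below its own cytosol in each pair. Mrpl32, whose maturation depends on a protease of the inner membrane, fell by 1.36 (SE 0.27, edgeR adjusted p = 0.00134) and Mrps33 by 1.32 (SE 0.16, edgeR adjusted p = 6.36e-06). Mrpl52, Mrpl16 and Mrpl42 each fell by 1.30, with an adjusted p of at most 4.98e-06. Mrpl12 fell by 1.27 (SE 0.12, edgeR adjusted p = 4.09e-07) and Mrpl28 by 1.26 (SE 0.12, edgeR adjusted p = 5.22e-07).

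The 6 genes that were higher in the membrane of the gradient were not called in whole fractions, and were looked at by pair after their values had been seen. The log2 ratio of Mrpl3 was 1.61 in the pair with no label, 0.35 in the untreated pair and -0.21 at 0 min. For Mrps22 it was 0.90, 0.11 and 0.03, and for Mrpl38 it was 1.25, -0.08 and 0.30. Mrpl37 had 0.81, 0.06 and -0.30, Mrpl2 had 0.56, -0.47 and -0.35, and Mrpl1 had 0.25, -0.22 and -0.21. In each of the 6 the pair with no label had the highest ratio of the 3, while the members' median ratio in those pairs was -0.92, -0.96 and -0.84. The fitted difference over the 3 pairs was 0.54 for Mrpl3 (SE 0.39, edgeR adjusted p = 0.271) and 0.42 for Mrpl38 (SE 0.29, edgeR adjusted p = 0.25). Muscle markers summed to 290 and 161 CPM in the cytosol and membrane of the pair with no label and to between 10.1 and 13.9 CPM in the puromycin series. Most of the sums in the pair with no label came from 1 gene, Acta1, at 265 and 142 CPM. The part of these markers was not tested. Across the 71 members the gradient and whole-fraction differences had a Pearson r of 0.85 and a Spearman rho of 0.77, with the same sign in 66, given as a description across genes that share their libraries.

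The RNA-seq libraries counted reads in the 3' UTR regions of 55 members, 54 of them with more than 20 reads. With 1 library a fraction there is no replicate check, and the intervals, exact at 95%, cover counting error only. The median log2 ratio of membrane over cytosol was -0.74 for members and -0.19 for all 8047 genes. At least 1.5-fold lower were 34 members, against 31.3% of genes, and at least 1.5-fold higher was 1, against 26.6%. That gene was Mrps22, with 567 reads in the cytosol, 2244 in the membrane and 1005 in the insoluble fraction, and a log2 ratio of 1.42 (1.29 to 1.56). Mrps18c had a ratio of -1.38 (-1.71 to -1.04) and Mrpl12 of -1.20 (-1.40 to -1.01). Of the 6 genes higher in the gradient membrane, Mrpl2 was not in this table and the other 4 lay below 0. Mrpl3 had a ratio of -0.20 (-0.48 to 0.08), Mrpl37 of -0.24 (-0.55 to 0.08), Mrpl38 of -0.52 (-1.04 to 0.01) and Mrpl1 of -0.56 (-1.37 to 0.25), intervals that all include 0. These ratios are scaled by total reads. Relative to the median of all genes they were -0.0086, -0.046, -0.33 and -0.37 in the same order. In the insoluble fraction the members' median ratio to cytosol was -1.19 against 0.30 for all genes.

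The next comparison, polysomes against monosomes, shows on which side of the gradient each transcript was richer. The members' calls went in both directions. In the cytosol of proliferating cells 10 were higher in polysomes and 2 lower, against 11.5% and 12.8% of all genes, and the median log2 difference was 0.18. CPM did not overlap in 31 that were higher and 16 that were lower, against 32.8% and 30.5%. With the replicate block the counts were 21 and 12, against 23.7% and 24.3%. In the same libraries 33 of 71 cytosolic ribosomal protein genes were lower in polysomes and 0 higher, with a median of -1.45.

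Mrps6 and Mrpl41 had the largest excess in cytosolic polysomes. Mrps6, a small subunit protein with a bacterial counterpart, stood at 293 and 298 CPM in polysomes and 57.8 and 51.3 CPM in monosomes, a difference of 2.36 (SE 0.36, edgeR adjusted p = 0.000716). Mrpl41, a large subunit protein of mitochondria only, stood at 150 and 130 CPM and at 26.3 and 32.5 CPM, a difference of 2.18 (SE 0.33, edgeR adjusted p = 0.000716). Neither gene had overlapping classes, and with Mrpl4 at 1.58 (SE 0.34, edgeR adjusted p = 0.00519) they kept the call in each fit without 1 library.

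Mrpl3 was higher by 1.80 (SE 0.56, edgeR adjusted p = 0.0329), Mrpl28 by 1.76 (SE 0.46, edgeR adjusted p = 0.0141) and Mrps17 by 1.53 (SE 0.37, edgeR adjusted p = 0.00952). These calls were lost in 3, 2 and 2 of the 4 fits without 1 library, each time without replicate 1 of monosomes. Mrps30 was lower in polysomes, with 10.8 and 9.85 CPM there and 20.8 and 29.8 CPM in monosomes. Its difference of -1.36 (SE 0.46, edgeR adjusted p = 0.046) was kept in 0 of 4 such fits. Mrps24, a small subunit protein with a bacterial counterpart, differed by -0.98 (SE 0.29, edgeR adjusted p = 0.0239) and kept its call in 1 of 4. Each of the 4 libraries moved the count: without 1 library 3 to 6 members were higher and 0 or 1 lower.

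In the membrane of proliferating cells 0 members were called in either direction by edgeR, against 0.358% and 0.438% of all genes, and the DESeq2 test also called 0. Before adjustment 6 lay under a p of 0.05, a count given without the share of all genes. CPM did not overlap in 8 that were higher and 25 that were lower, against 15.7% and 28.3%. Mrps12 at 1.03 (edgeR adjusted p = 0.229) and Mrpl11, at the base of the stalk, at -0.95 (edgeR adjusted p = 0.267) had the lowest p. The replicate block gave 11 higher and 3 lower, against 16.8% and 6.25%.

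The gap between the fractions was itself past the threshold for Mrpl41 and Mrps6, against 1.1% of genes, and for 0 members in the other direction, against 6.19%. Mrpl41 had 66.6 and 54.1 CPM in membrane polysomes and 74.5 and 90.8 CPM in membrane monosomes. Its polysome excess differed by -2.30 between membrane and cytosol (SE 0.46, edgeR adjusted p = 0.0078), a call kept in each of 8 fits without 1 library. Mrps6 had 184 and 132 CPM and 198 and 132 CPM there, and its gap of -2.04 (SE 0.49, edgeR adjusted p = 0.0221) was kept in 2 of 8, with p up to 0.0984. The replicate block gave 8 higher and 6 lower, against 18.1% and 10.4%.

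In differentiating cells the polysome libraries had the label of 2% horse serum and the monosome libraries that of 10% fetal bovine serum. Ribosome class and medium label therefore cannot be told apart in these contrasts, in cytosol, in membrane or between them. Differentiating cytosol showed 7 members higher in polysomes and 5 lower, against 12.6% and 11.3% of all genes, and the median was 0.03. CPM did not overlap in 31 and 16, against 39.1% and 19.9%, and the block gave 18 and 19, against 24.6% and 21.5%. Mrpl41 had 104 and 125 CPM in polysomes and 15.9 and 17.9 CPM in monosomes, a difference of 2.45 (SE 0.34, edgeR adjusted p = 0.000455). Mrps6 had 128 and 88.5 CPM and 16.2 and 21.9 CPM, a difference of 2.22 (SE 0.37, edgeR adjusted p = 0.00115). Both groups of values lie well apart. Mrpl28, with 1228 and 1749 CPM against 255 and 279 CPM, was higher by 2.15 (SE 0.47, edgeR adjusted p = 0.00517). These 3 kept their calls in each fit without 1 library. Mrps17, Mrpl4 and Mrpl16 were also called higher and did not keep their calls in every such fit. Mrpl3 at 2.30 (SE 0.63, edgeR adjusted p = 0.0188) kept its call in 0 of 4. It is named here outside the naming rule, which asks for 10 CPM. Its monosome libraries held 10 and 4 reads, so that its value rests on few reads.

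On the monosome side of differentiating cytosol, Mrps30 had 6.52 and 7.31 CPM in polysomes and 16.7 and 26.6 CPM in monosomes, a difference of -1.96 (SE 0.47, edgeR adjusted p = 0.00986). Mrpl42 differed by -2.0 (SE 0.59, edgeR adjusted p = 0.0259), with 93.8 and 84.1 CPM against 430 and 155 CPM. Its monosome replicates were far apart, and without replicate 1 of monosomes the difference was -1.10 (adjusted p = 0.255). Mrpl45 differed by -1.59 (SE 0.47, edgeR adjusted p = 0.0253) and by -1.0 (adjusted p = 0.206) without replicate 2 of monosomes. Mrpl32 differed by -1.23 (SE 0.41, edgeR adjusted p = 0.0443) and Mrps24 by -0.88 (SE 0.29, edgeR adjusted p = 0.0405). None of these 5 calls was kept in every fit without 1 library, and without either polysome replicate 0 of the 5 remained.

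In differentiating membrane 0 members were called by edgeR, against 2.05% higher and 1.91% lower. Before adjustment 10 lay under a p of 0.05, and the DESeq2 test called 5 lower. Shares of all genes are not given for these 2 counts, which are therefore not a result about the members. CPM did not overlap in 16 and 15, against 32.1% and 15.9%. Mrpl41 at 1.00 (edgeR adjusted p = 0.0995) and Mrpl52 at -0.76 (edgeR adjusted p = 0.128) had the lowest p, and the block gave 7 and 9, against 20.3% and 9.37%. Between the fractions of differentiating cells, 1 member differed in the lower direction, against 0.465% of genes, and 0 in the higher, against 3.63%. It was Mrps6, whose gap was -1.94 (SE 0.50, edgeR adjusted p = 0.0463), kept in 2 of 8 fits without 1 library with p up to 0.21. The block gave 2 and 5, against 12.4% and 6.33%.

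**Figure D4:**
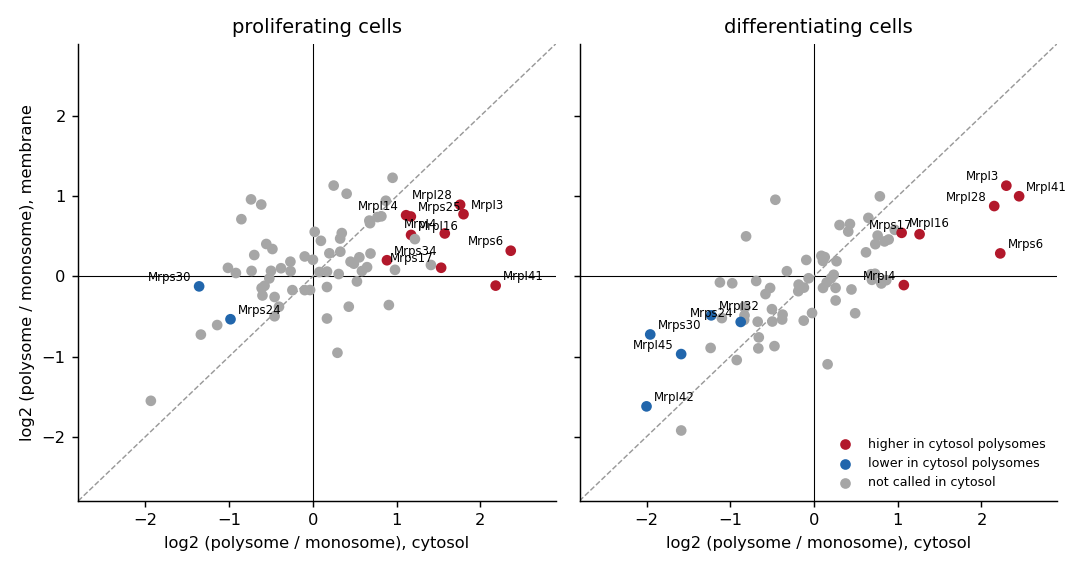
Log2 ratio of polysome to monosome in cytosol (horizontal axis) and membrane (vertical axis) for the 72 genes, in proliferating and differentiating cells, with genes called in the cytosol coloured and named and the dashed line marking equal ratios. In proliferating cells Mrpl41 and Mrps6 lie at 2.18 and 2.36 in the cytosol and at -0.12 and 0.32 in the membrane.

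Few of these genes differed between the states. Over the 4 kinds of gradient library 3 members were higher and 5 lower in differentiating cells, against 16.3% and 19.2% of all genes, with a median of -0.10. Over all 16 libraries the CPM of the states overlapped in each member, a separation seen in 2.01% and 2.77% of genes. The block gave 12 higher and 20 lower, against 24.8% and 30.5%. Replicate numbers lie within a state, so that this block leaves the spread between numbers out of its error and its p-values are too small. The main fit takes the libraries of 1 number as separate. Those libraries deviated together, with correlations of 0.47 to 0.73 between groups. The p-values of the main fit between the states, given below, are therefore too small as well. In the same fit 11 of 11 muscle markers were higher with a median of 7.76 and 6 of 6 proliferation markers were lower. Bulk libraries cannot tell fewer cells of a kind from less RNA per cell.

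Mrps6 had the clearest decrease. Beside the cytosol values above, its membrane held 62.0 and 38.6 CPM in polysomes and 44.2 and 38.2 CPM in monosomes of differentiating cells, against 184, 132, 198 and 132 CPM in proliferating cells. Each class of library was lower than its counterpart, and the change was -1.43 (SE 0.18, edgeR adjusted p = 5.39e-05). Mrpl3 fell by 1.04 (SE 0.28, edgeR adjusted p = 0.0117). Mrpl40 had 796, 514, 571 and 537 CPM in proliferating cytosol and 427, 329, 311 and 209 CPM in differentiating cytosol, and fell by 0.64 (SE 0.18, edgeR adjusted p = 0.0139). These 3 kept their call in each of the 16 fits without 1 library.

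Mrpl12 fell by 0.58 (SE 0.16, edgeR adjusted p = 0.0153), a call lost without replicate 2 of differentiating membrane polysomes or of proliferating membrane monosomes. Mrps27 differed by -0.58 (SE 0.21, edgeR adjusted p = 0.0466), which was lost in 13 of 16 such fits and with DESeq2 size factors, where it was -0.49 (adjusted p = 0.0725). Higher in differentiating cells were Mrpl24 by 0.67 (SE 0.23, edgeR adjusted p = 0.0381), Mrpl43 by 0.58 (SE 0.18, edgeR adjusted p = 0.0265) and Mrps34 by 0.39 (SE 0.14, edgeR adjusted p = 0.0421). None of the 3 increases kept its call in all 16 fits. Without replicate 1 of all differentiating groups 2 members were higher and 8 lower, and without replicate 2 the counts were 1 and 2. The share of all genes called in these fits is not given here, so that their counts are not a result about the members. The muscle markers moved with the replicate number, and their part in these counts was not tested.

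After puromycin the members' shares in cytosol and membrane were closer. Their share was 1.32%, 1.31% and 1.30% in the cytosol of the pair with no label, the untreated pair and the 0 min pair, and 0.994% and 1.03% after 30 and 60 min. The membrane share was 0.710%, 0.685% and 0.712% in the first 3 and 0.794% and 0.797% after exposure. The exposed libraries lay outside the range of the others in both fractions. The members' median log2 ratio per pair was -0.92, -0.96 and -0.84 without exposure and -0.37 and -0.31 after 30 and 60 min, while that of all genes was -0.10, 0.11 and 0.15, and then 0.25 and 0.26.

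The same libraries differed in their ER markers, which summed to between 1286 and 1808 CPM in cytosol without exposure and to 19115 and 18819 CPM after 30 and 60 min. In the membrane they went from between 37682 and 38910 CPM to 21578 and 21542 CPM. Nuclear RNAs summed to 42.4, 128 and 177 CPM in the membrane without exposure and to 276 and 572 CPM after 30 and 60 min. All 16 ER markers had a lower ratio after exposure, with a median change of -5.06 on the log2 scale, and 31 of 71 cytosolic ribosomal protein genes had a higher ratio and 0 a lower, with a median of 0.85. The part of these shifts in the members' change was not tested.

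For single members the test of the ratio's change called 7 higher and 1 lower of 71, against 8.43% and 19.8% of all genes, with a median of 0.27. None of the 8 calls was kept in each of the 5 fits without 1 pair. Without the pair with no label 21 members were higher, without the 30 min pair 1 and without the 60 min pair 0. Lower were 2 without the untreated pair, 4 without the 0 min pair and 0 without the 60 min pair. With minutes of exposure in place of exposed or not, 0 members were called in either direction. The shares of all genes called in these alternative fits are not given here, so that their counts cannot be set against the other genes.

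Mrpl52, a large subunit protein of mitochondria only, had 173, 324 and 230 CPM in cytosol without exposure and 172 and 147 CPM after 30 and 60 min. Its membrane held 86.8, 109 and 105 CPM and then 158 and 155 CPM. Its ratio rose by 0.92 (SE 0.24, edgeR adjusted p = 0.00935), with 0.82 (adjusted p = 0.123) without the 60 min pair. Both fractions separated by exposure, the cytosol only narrowly. Mrpl14, a face protein where assembly factors bind, had 66.5, 68.5 and 64.5 CPM and then 39.9 and 38.3 CPM in cytosol, and 34.8, 35.1 and 36.1 CPM and then 44.7 and 41.3 CPM in membrane. Its ratio rose by 0.75 (SE 0.22, edgeR adjusted p = 0.0186), and both fractions separated by exposure.

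Mrps26 rose by 0.74 (SE 0.22, edgeR adjusted p = 0.0197), Mrps25 by 0.72 (SE 0.21, edgeR adjusted p = 0.0195) and Mrpl28 by 0.58 (SE 0.18, edgeR adjusted p = 0.0292). Mrpl14 and these 3 lost their calls without the 30 min or the 60 min pair. Mrps18c changed by 0.69 (SE 0.24, edgeR adjusted p = 0.0473) and kept its call in 1 of 5 fits without 1 pair.

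Mrps22 alone went the other way among the called members. Its cytosol held 49.5, 25.2 and 25.8 CPM and then 29.6 and 34.2 CPM, and its membrane 92.0, 27.2 and 26.2 CPM and then 19.1 and 16 CPM. The pair with no label was high in both fractions, and the exposed membrane libraries were the lowest. Its ratio fell by 1.53 (SE 0.35, edgeR adjusted p = 0.00611). Without the pair with no label it was -1.01 (adjusted p = 0.00511), and without the 60 min pair -1.29 (adjusted p = 0.0768).

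**Figure D5:**
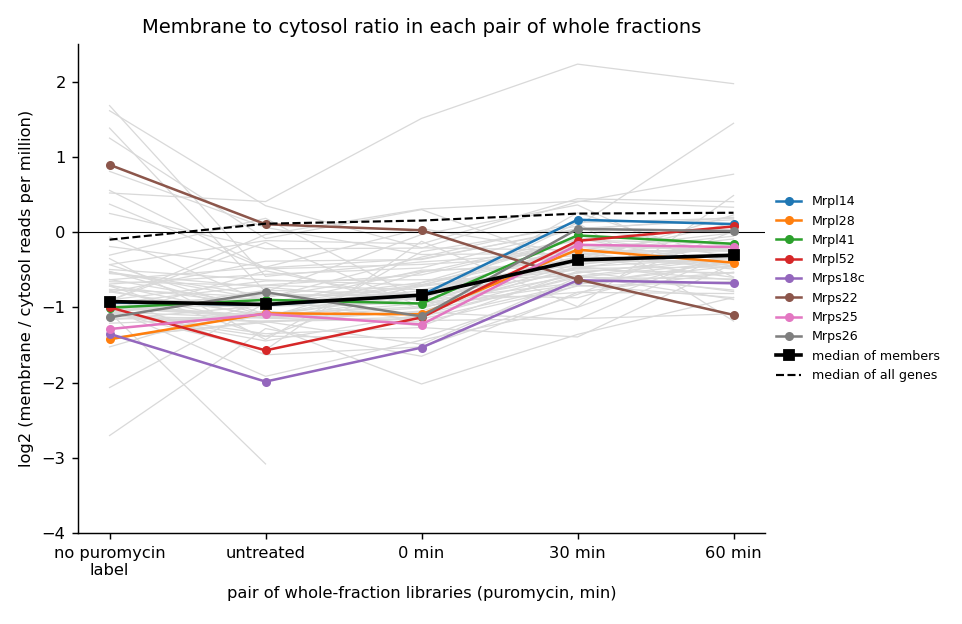
Log2 ratio of membrane to cytosol CPM in each of the 5 whole-fraction pairs, with a grey line for each member, coloured lines for the members with a called change, a black line for the members' median and a dashed line for the median of all genes. The members' median rises from between -0.96 and -0.84 without exposure to -0.37 and -0.31 after 30 and 60 min.

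Levels over both fractions of the puromycin libraries were not called in any member, against 0.0884% higher and 0.0% lower of all genes. Before adjustment 4 members lay under a p of 0.05, a count given without the share of all genes, and the DESeq2 test called 0. Mrpl18 at -0.69 (edgeR adjusted p = 0.447) and Mrpl12 at -0.49 (edgeR adjusted p = 0.445) had the lowest p. In the 4 cytosol libraries alone 7 members were lower after exposure, against 6.47% of all genes, and 0 higher, against 17.2%. Mrps26 was the largest of them at -0.96 (edgeR adjusted p = 0.00479), from 117 and 82.6 CPM in the untreated and 0 min libraries to 48.2 and 54.9 CPM, and Mrpl52 changed by -0.80 (edgeR adjusted p = 0.0138). The others were Mrpl14, Mrpl12, Mrps7, Mrps33 and Mrpl17. In the membrane libraries alone 0 were called, against 1.95% and 6.11%.

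Alternative ends of a gene can be compared only where a second site is used. Site pairs, the 2 most used sites of a gene, were available for 31 members among 4554 pairs in the gradient and 33 among 4708 in the whole fractions. In the gradient 0 members were called for a change in the use of the distal site in the main fit. The share of all pairs called was 0.483% higher and 0.0439% lower for membrane against cytosol in proliferating cells, 0.022% and 0.0% in differentiating cells, and 1.08% and 0.439% between the states. Before adjustment 2, 1 and 2 members lay under a p of 0.05, counts given without the share of all pairs. In proliferating cells Mrps25 at 1.28 (edgeR adjusted p = 0.245) and Mrpl30 at 0.69 had the lowest p. In differentiating cells these were Mrpl16 at 1.23 and Mrps5 at 3.52. Between the states they were Mrpl10 at 0.72 (edgeR adjusted p = 0.18) and Mrps5 at -2.20. Mrps5 had between 12 and 45 reads over all its sites in the differentiating libraries, so that both of its values rest on few reads.

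Under the replicate block Mrps25 passed in proliferating cells at 1.26 (edgeR adjusted p = 0.00135), against 4.92% higher and 1.16% lower, and 0 members in differentiating cells, against 1.52% and 0.132%. Between the states Mrpl10 at 0.74 (edgeR adjusted p = 0.0053) and Mrps17 at 0.65 (edgeR adjusted p = 0.0401) passed, against 7.18% and 2.9%, with the limit on that block given above.

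In whole fractions 1 member used its distal site more in the membrane and 1 less, against 6.88% and 1.34% of all pairs. Mrpl19, a large subunit protein with a bacterial counterpart, has sites at 81911448 and 81909625 on the minus strand of chromosome 6 in mm9, 1823 nt apart. Its distal share in the pair with no label, untreated, 0, 30 and 60 min was 25.0%, 24.3%, 32.7%, 25.1% and 32.9% in cytosol and 25.7%, 33.2%, 42.5%, 44.8% and 44.0% in membrane. The membrane was higher in 5 of 5 pairs, by less than 1 percentage point in the first. The log2 change was 0.64 (SE 0.18, edgeR adjusted p = 0.0124), lost without the 30 min pair (adjusted p = 0.17).

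Mrpl17, a protein near the exit tunnel, has sites at 112958199 and 112957832 on the minus strand of chromosome 7 in mm9, 367 nt apart. Its distal share was 46.6%, 42.0%, 48.8%, 47.6% and 47.0% in cytosol and 32.3%, 33.0%, 39.9%, 36.7% and 32.8% in membrane, which do not overlap. The log2 change was -0.69 (SE 0.20, edgeR adjusted p = 0.021), and it lost its call without the 30 min or the 60 min pair, with p up to 0.096. The calls of Mrpl19 and Mrpl17 thus point in opposite directions.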

How the data were processed

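Per the file headers, the authors deposited raw read counts: 1 file of 3' end reads at each poly(A) position, with a column for every library, and 1 file of RNA-seq reads in 3' UTR regions of genes. The submitters' processing notes list cutadapt, STAR 2.5.2, Bowtie2 and the build mm9 with no order or role. How reads were counted, and whether strand was used for RNA-seq, is not given in the sources used here. Per the labels' protocols, RNA was taken up with TRIzol for whole fractions and with phenol and chloroform for gradient libraries, so that the 2 sets also differ in extraction.

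The counts of all sites of a symbol were added up, and 651 positions under more than 1 symbol, with 0.56% of reads, were left out. Every count column had a sample. Low genes were dropped by filterByExpr, TMM gave the scaling, and glmQLFTest (robust) of edgeR 4.0.16, run under R 4.3.3, gave the p-values. These were adjusted by Benjamini-Hochberg over all genes tested, and 0.05 was the threshold. A standard error is the log2 change over the root of F. The 16 gradient libraries were fitted together, with a mean for each of 8 groups. Membrane against cytosol is the mean of the polysome and monosome differences. The 10 whole-fraction libraries were fitted with a term for each pair, for fraction and for fraction by exposure (30 and 60 min). Levels after puromycin used the 8 libraries of the puromycin series. Site pairs, at most 10000 nt apart, with a mean of at least 10 reads and at least 5% of them in the rarer site, were fitted with proximal and distal counts as separate columns. RNA-seq reads of both UTR regions were summed, and ratios are given with exact intervals. Intervals cover counting error only. The steps were tested on simulated counts drawn separately for each library. These lacked the shared deviation of same-numbered replicates described below, so that this check does not cover error rates in the real libraries.

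Same-numbered replicates deviated together: over 11176 genes the correlation of deviations from group means was above 0.1 for each pair of groups within a state, from 0.47 to 0.73. The labels do not say what a number shares, and the fit with replicate number as a block is given where it moved a count or a call. Alternatives were DESeq2 1.42.0, its size factors, no filter, the most abundant site only, shared positions kept, only the groups compared, and leaving out each library or pair. Leaving out a replicate number in all differentiating groups was added after the data were seen.

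Genes were named by a rule: the 8 most abundant members, up to 6 per direction with the largest called change at 10 CPM or more, otherwise the 2 of lowest p, and Mrpl45, Mrpl12, Mrps12, Mrps18a, Mrps18b, Mrps18c, Mrpl23 and Mrps5 for their known roles. Members and lists were chosen with earlier results of these data known.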

Additional observations from a re-analysis of the deposited data

Results flagged for a closer look

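A total of 11 results differed between groups by a test of the difference itself, each at an edgeR p under 0.05 after Benjamini-Hochberg adjustment over all genes. For the polysome excess, 1.1% of all genes were called lower in membrane than in cytosol in proliferating cells, and 0.465% in differentiating cells. The polysome excess of Mrpl41 was smaller in the membrane than in the cytosol of proliferating cells by a log2 difference of -2.30, and it was in the same direction in differentiating cells at -1.45 (adjusted p = 0.107). For Mrps6 the difference was -2.04 in proliferating and -1.94 in differentiating cells. In differentiating cells polysomes and monosomes also differ in their medium label, which cannot be told apart from the class. In the RefSeq coordinates of GRCm38 Mrps6 overlaps Slc5a3, and the part of that neighbour was not tested.

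After puromycin the ratio of membrane to cytosol rose for Mrpl52 by 0.92, for Mrpl14 by 0.75, for Mrps26 by 0.74, for Mrps25 by 0.72, for Mrps18c by 0.69, for Mrpl28 by 0.58 and for Mrpl41 by 0.56 (adjusted p = 0.0481). Mrpl41 is named here after its value was seen. The ratio of Mrps22 changed by -1.53. These are 7 members called higher and 1 lower, while 8.43% of all genes were called higher and 19.8% lower. None of these calls was kept in each of the 5 fits without 1 pair. Each exposure time is 1 pair of libraries, and ER markers moved from membrane to cytosol in the same libraries. Their part was not tested. No group had 4 or more samples, so that no sample could be set apart from its group.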

How the results depend on the processing

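With replicate number as a block, the members called in membrane against cytosol were 50 lower (proliferating) and 2 higher and 49 lower (differentiating), and 3 were lower in the difference between states. Polysomes against monosomes gave, higher and lower, 21 and 12 in proliferating cytosol, 11 and 3 in its membrane, 8 and 6 between these fractions, 18 and 19 in differentiating cytosol, 7 and 9 in its membrane, and 2 and 5 between them. Differentiating against proliferating gave 12 and 20, and site pairs 1 higher in proliferating cells and 2 higher between states. With DESeq2 size factors 29 were lower in differentiating membrane, 10 lower in differentiating cytosolic polysomes, 0 between those fractions, and 11 higher for fraction by puromycin. The DESeq2 test gave 34 lower in differentiating membrane, 7 and 13 lower in polysomes of proliferating and differentiating cytosol, 5 lower in those of differentiating membrane, 2 lower between its fractions, 5 higher with differentiation and 2 lower for puromycin. Without a filter 1 was lower in proliferating cytosolic polysomes, 2 higher in whole membrane and 4 lower for puromycin. With the most abundant site only, the first of these was 1 and the gap in differentiating fractions 0. With only the groups compared, 1 was lower in proliferating cytosolic polysomes, 4 higher and 3 lower in differentiating ones, and 0 between differentiating fractions. Minutes of exposure gave 0 and 0, and the cytosol alone 7 lower. The shares of all genes called are not given for the DESeq2 test, no filter, the most abundant site or only the groups compared. A shift of those counts is therefore not a result about the members.

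Leaving out 1 library, pair or replicate number gave 3 to 6 higher and 24 to 35 lower for membrane in proliferating and 0 to 1 and 0 to 16 in differentiating cells. In polysomes it gave 3 to 6 and 0 to 1 in proliferating cytosol, 3 to 6 and 0 to 3 in differentiating cytosol, and 1 to 2 and 0 to 1 lower between the fractions of each. The ranges were 0 to 5 and 2 to 8 for differentiation, 0 to 1 and 51 to 57 for whole fractions, 0 to 21 and 0 to 4 for puromycin, and 0 to 1 and 0 to 2 for whole-fraction site pairs. The cause of these shifts was not tested, beyond the smaller number of samples. The shares of all genes called in these fits are not given here. Of the other counts 165 stayed within 1.5 times. Of single-gene results 482 kept their side of the threshold, called or not, 31 lost a call and 13 gained one. When a library, pair or number was left out, 481 single-gene results kept their side of the threshold, called or not, and 172 lost a call. Under any setting 0 single-gene results changed direction.

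DESeq2 size factors moved the median of all genes by -0.18 for membrane against cytosol in proliferating cells, with 2231 higher and 1815 lower genes in place of 2597 and 1290. For differentiating cells the shift was -0.11 (1450 and 875 in place of 1586 and 614), for differentiating cytosolic polysomes -0.18 (1124 and 1537 in place of 1409 and 1264), and for fraction by puromycin 0.13 (1456 and 2001 in place of 897 and 2103). Groups of 2 libraries limit all tests, and members under 10 CPM rest on few reads.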

Other observations

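In whole fractions not exposed to puromycin, 32% of all genes were higher in the membrane and 29.9% lower. Of 16 mitochondrial aminoacyl-tRNA synthetases 7 were higher in the membrane and 0 lower, and of 31 translation and assembly factors 10 were higher and 9 lower. Of 25 import genes 2 were higher and 13 lower, and of 7 mitoribosome proteins with other names 0 were higher and 5 lower. After puromycin the ratio of membrane to cytosol fell in 19.8% of all genes and rose in 8.43%. It fell in 7 of the 31 factors and rose in 1, fell in 2 of the 16 synthetases and in 3 of the 25 import genes, and was called in 0 of the 7 other mitoribosome proteins. In differentiation 16.3% of all genes were higher and 19.2% lower, and 7 synthetases were lower and 2 higher, and 5 factors were lower and 2 higher.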
